A study of Mus musculus with 16 samples.

Results

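The genes described here encode subunits of the mitochondrial respiratory chain that are carried on nuclear chromosomes. They were chosen by name from the count table: symbols beginning with Nduf and a subunit letter and number, with Uqcr, with Cox4 to Cox8 or with Atp5 and a letter, plus Sdha, Sdhb, Sdhc, Sdhd and Cycs. A gene also needed a nonzero count in all 16 libraries. Of 24421 entries in the table, 85 had such a name and 78 met both conditions: 34 genes of complex I, 4 of complex II, 8 of complex III, 14 of complex IV, 17 of complex V, and Cycs. All 78 passed the filter on low counts and were tested among 13554 genes.

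The libraries came from naive T cells of C57BL/6 mouse lymph nodes. The sort took CD4+ or CD8+ cells that lacked CD25, carried much CD62L and little CD44. Each lineage was then split by surface CD5, keeping the third with most CD5 (CD5hi) and the third with least (CD5lo). CD5 is a surface receptor that restrains signals from the T cell receptor, and naive cells that recognise self more strongly carry more of it. The 4 groups, CD4 CD5lo, CD4 CD5hi, CD8 CD5lo and CD8 CD5hi, had 4 biological replicates each and differ in lineage and CD5 gate; all share strain, tissue and naive gate. No treatment, age or sex is given in the sources used here. Nor do these say whether replicates are separate animals or pools, so p-values measure the spread between these libraries.

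The respiratory chain moves electrons from NADH (complex I) and succinate (complex II) through complex III and cytochrome c to oxygen at complex IV. Complexes I, III and IV pump protons across the inner mitochondrial membrane, and complex V, the ATP synthase, uses the gradient to make ATP. Naive T cells rely largely on this route for ATP and enlarge their mitochondrial capacity when activated. The nuclear genome encodes most subunits; the few encoded by mitochondrial DNA have 0 entries in the count table and were not analysed here.

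Libraries held 71447252 to 93418385 counts, and a member's count in a single library ran from 32 to 76206. The sort was visible in the RNA: Cd5 reached 1349 to 1427 CPM, counts scaled to a common library size, in CD4 CD5hi against 237 to 276 in CD4 CD5lo, and 469 to 552 in CD8 CD5hi against 187 to 216 in CD8 CD5lo. The T cell marker Cd3e was at 313 to 482 CPM in all libraries. Cd44 RNA was at 7.61 to 20.5 CPM in CD8 CD5hi and 2.70 to 7.35 in CD8 CD5lo, without overlap. In CD4 cells Cd44 was at 3.46 to 8.90 in CD5hi and 5.55 to 8.39 in CD5lo. The highest Cd4 value was 27.2 CPM in CD8 CD5lo (median 1.82) and 62.2 in CD8 CD5hi (median 0.643). The part of these differences in the members' values was not tested. Summed B cell markers stood apart in 3 libraries, CD4 CD5lo replicate 3 (377 CPM), CD8 CD5lo replicate 3 (592) and CD8 CD5hi replicate 4 (957), against 10.8 to 70.0 in the other 13. CD8 CD5hi replicate 1 stood apart in the members themselves, as described below. Results are therefore also given without these libraries.

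The 7 names left out show where the rule drew its line. Ndufs5, Cox8c and Cox7b2 were listed at 0 in all 16 libraries. Ndufs5 encodes a subunit of complex I. Whether its 0 comes from annotation, counting or expression was not tested, so nothing can be said here of its level. Ndufa4l2 was at 0 in 8 libraries, Cox6a2 in 5, Cox8b in 3 and Cox4i2 in 1, with no count above 18; Cox6a2, Cox7a1 and Cox8b are heart and muscle forms of subunits whose broadly expressed forms are Cox6a1, Cox7a2 and Cox8a. Just inside the rule were Cox7a1 (32 to 76 counts) and Cox6b2, a testis form of Cox6b1 (42 to 121 counts). The ubiquitous forms were far more abundant: the mean over 16 libraries of CPM per kilobase of exon (RPKM) was 156 for Cox6a1 and 216 for Cox8a, but 1.33 for Cox7a1 and 0.861 for Cox6b2.

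Levels per kilobase differed more between members than between groups, from 0.861 to 216 as means over 16 libraries. The highest mean RPKM was that of Cox8a (216 ± 44, SD over 16 libraries), a small core-associated subunit of complex IV. Next were Atp5a1 (202 ± 12.6), the alpha subunit of the ATP synthase catalytic head, and Cox7a2l (196 ± 17.7), placed in complex IV by its name. Atp5b (183 ± 16.4), the catalytic beta subunit, followed. The lowest after Cox6b2 and Cox7a1 were Atp5s, a coupling factor (1.66 ± 0.451), and Ndufb2, an accessory subunit of complex I (4.13 ± 0.66). Within complexes the median RPKM was 33.6 for I, 47.4 for II, 54.3 for III, 60.4 for IV and 55.1 for V. Cycs, the cytochrome c that also triggers apoptosis when released, was at 11.4 ± 1.91. Dividing by the longest transcript in place of all merged exons raised the median over the 78 from 41.0 to 58.9 but kept a similar order (Spearman rho 0.923 over the 78 genes, a description only). The choice moved single genes more: Atp5g3 went from 63.2 to 160.03 and Atp5g2 from 48.9 to 108.8.

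**Figure D1:**
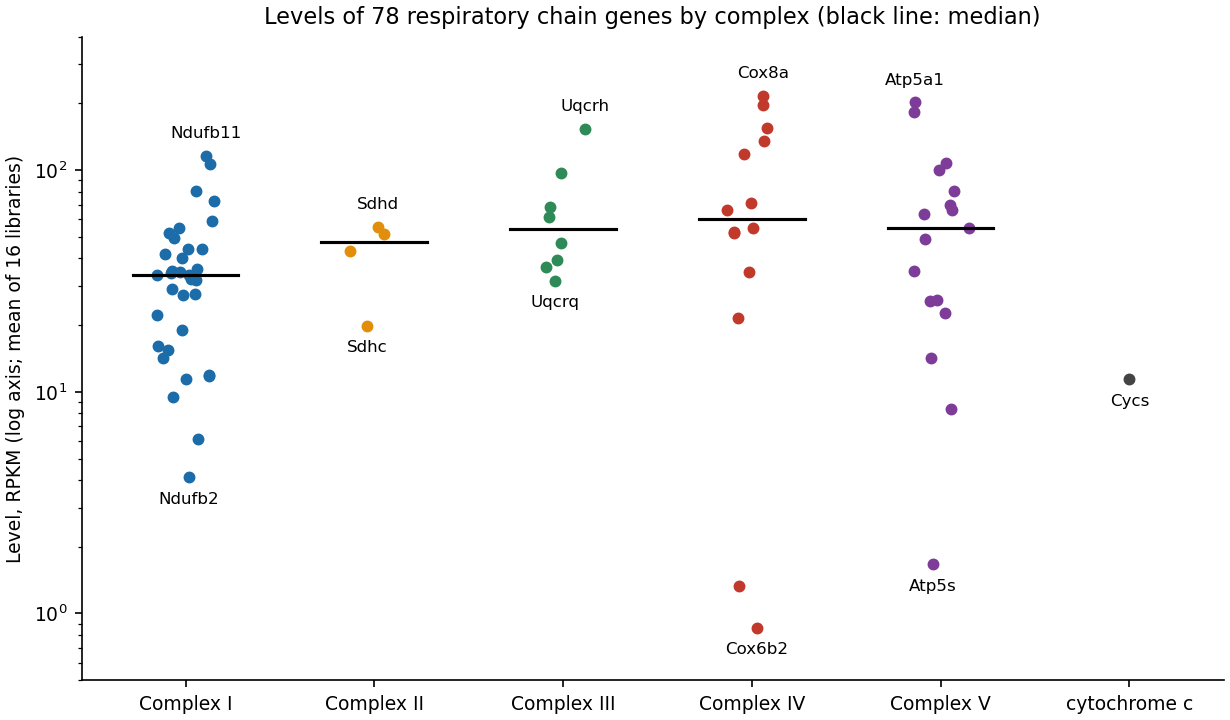
Level of each of the 78 genes as RPKM (log axis), the mean of 16 libraries, by complex; each point is a gene and the black line the median of its complex. Cox8a is the highest at 216, Cox6b2 the lowest at 0.861, and the medians of the 5 complexes lie between 33.6 and 60.4.

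Median RPKM of the complexes stayed close across groups, with CD8 CD5hi the highest in each. Complex I was at 32.9 and 33.3 in CD5lo and CD5hi CD4 cells and at 31.7 and 34.8 in the CD8 cells. Complex III was at 51.1, 50.7, 54.0 and 61.4 in the same order. Complex IV was at 57.8, 57.04, 58.7 and 73.4, and complex V at 54.1, 52.6, 52.8 and 60.9. Complex II was the flattest, at 46.5, 46.6, 47.0 and 48.1. The 78 genes together held 6604 to 9456 CPM per library. These are bulk values, in which more cells of a kind and more RNA per cell cannot be told apart.

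Libraries numbered 1 stood above the others of their group in these genes. For each library the members' log2 CPM were set against their own means over 16 libraries. The median deviation of replicate 1 was the highest of its group in all 4 groups: 0.12 and 0.18 in CD5lo and CD5hi CD4 cells, and 0.13 and 0.46 in the CD8 cells. All other libraries lay between -0.19 and 0.05. CD8 CD5hi replicate 1 held the highest of 16 values for 66 of the 78 genes, and CD4 CD5hi replicate 2 the lowest for 32.

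CD8 CD5hi replicate 1 was high in every complex, with median deviations of 0.43 in I, 0.26 in II, 0.53 in III, 0.46 in IV and 0.47 in V. Other gene groups ran high in this library too: the median deviation was 0.31 for 82 cytosolic and 0.34 for 77 mitochondrial ribosomal protein genes, lists taken by name after the files were seen. Base composition moved with it as well. Across the 78 genes the deviation in this library had a Spearman rho of -0.55 with the GC content of the longest transcript (-0.35 across 13432 tested genes with a transcript). The rho with transcript length was -0.18 across the 78 (-0.10 across all). In other libraries the rho with GC over the 78 ran from -0.57 (CD4 CD5lo replicate 2) to 0.55 (CD8 CD5lo replicate 4). These correlations describe genes within a library and carry no test, and their part in the results was not tested.

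**Figure D2:**
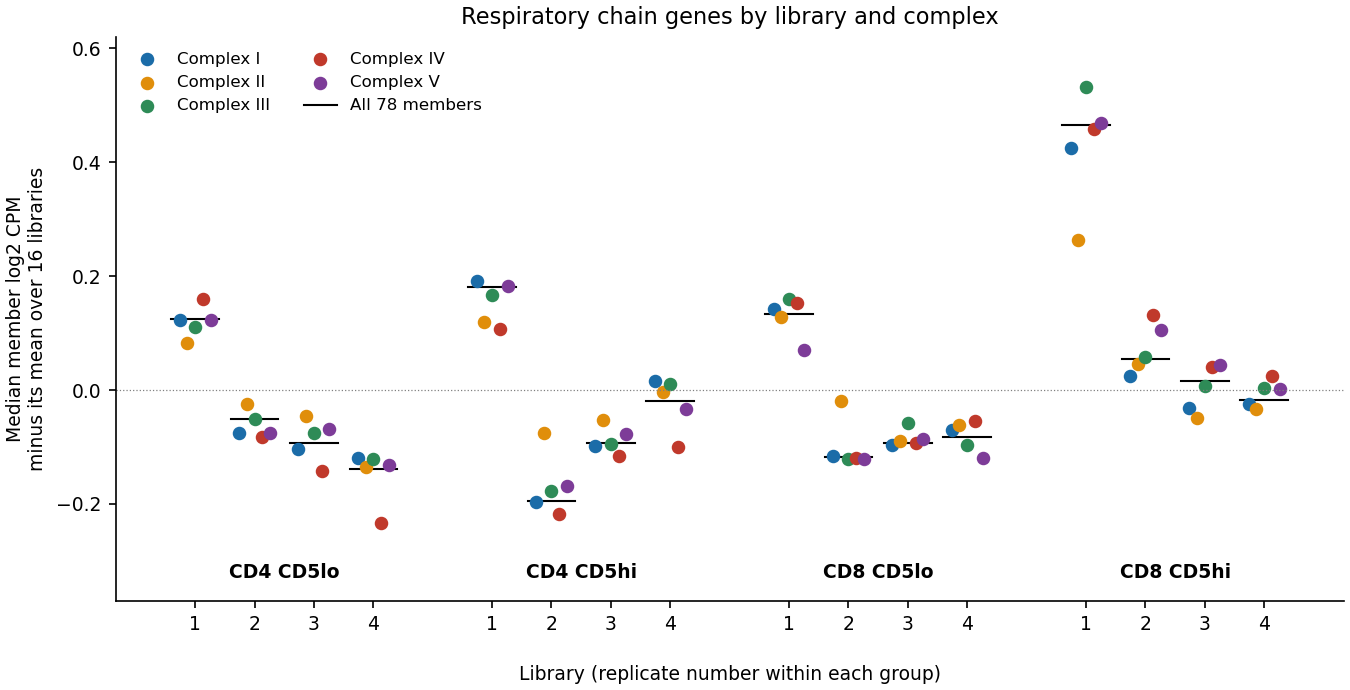
Median over genes of log2 CPM minus the gene's mean over 16 libraries, by library; points are complexes I to V and the black line all 78 genes. Replicate 1 is the highest of each group, and CD8 CD5hi replicate 1 reaches 0.46.

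The members' 250 bases upstream of the RefSeq start site (GRCm38.p6) were searched for letters bound by factors known to drive respiratory genes. NRF1, nuclear respiratory factor 1, is a textbook activator of this gene group. Of 65 members with an entry, 11 (16.9%) held its core, GCGCA and GCGC with any base (N) between them, on either strand, against 3.86% of 27025 promoters of the same length. The ETS core CCGGAAG, which GABP binds, was in 11 (16.9% against 7.05%). The CCAAT box was in 30 (46.2% against 34.5%), the Sp1 box GGGCGG in 22 (33.8% against 32.9%) and the YY1 core AAGATGGC in 0 (1.59% of all). Matches overlapping between motifs were counted for each. The 27025 promoters are those of all genes with an entry, expressed in these cells or not. The shares among expressed genes alone were not computed, so the differences cannot be read as particular to respiratory genes. The NRF1 matches are shown because this motif differs most from all promoters; each line gives 30 bases of the gene's own strand, 5′ to 3′, with the matched letters in capitals (in Ndufa8 the core lies on the opposite strand, so its reverse complement is read).
Ndufa8 (chr2:36049349-36049378, - strand): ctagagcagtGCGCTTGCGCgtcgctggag
Ndufa11 (chr17:56717692-56717721, + strand): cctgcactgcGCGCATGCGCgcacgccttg
Sdha (chr13:74350319-74350348, - strand): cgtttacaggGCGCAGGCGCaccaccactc
Sdhd (chr9:50603909-50603938, - strand): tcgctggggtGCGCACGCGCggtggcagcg
Cox6a1 (chr5:115349101-115349130, - strand): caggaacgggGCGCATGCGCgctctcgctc
Atp5g2 (chr15:102671070-102671099, - strand): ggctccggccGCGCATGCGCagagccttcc
Atp5k (chr5:108434430-108434459, - strand): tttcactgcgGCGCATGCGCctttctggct
The other members with the core were Ndufa5, Ndufb4, Ndufs6 and Atp5h. A match is a string of letters and not a measured binding site. In CD8 cells the median log2 change from CD5lo to CD5hi was 0.16 over the 11 genes with the NRF1 core and 0.19 over the 54 without it, and for the ETS core 0.19 over both the 11 with it and the 54 without it.

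In CD4 cells no respiratory chain gene passed the test between CD5hi and CD5lo. Without pairing, 0 of 78 members were called higher and 0 lower in CD5hi (edgeR, adjusted p under 0.05 over all genes), where 2.68% of all tested genes were called higher and 1.4% lower. Unadjusted p-values were below 0.05 for 0 members, and DESeq2 and limma voom called 0 either way. The median log2 change was 0.004, beside -0.007 over all genes, and 44 of 78 were above 0. With the replicate number as a block the counts were again 0 and 0 (5.69% and 3.99% of all genes), with 2 unadjusted p-values below 0.05. With blocks drawn within each lineage, 2 members were higher and 0 lower at that unadjusted level, beside 1677 and 1366 of 13554 genes.

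By complex the CD4 medians were 0.01 for I, 0.001 for II, -0.01 for III, 0.01 for IV and 0.002 for V. Single values ran from -0.12 for Uqcrb, a subunit of complex III, to 0.13 for Ndufv2, an iron-sulfur subunit of the NADH-oxidising arm of complex I. The smallest p was that of Cox5a, a nuclear subunit of complex IV, with 0.11 ± 0.09 (log2 change ± SE; edgeR adjusted p = 0.789). In 0 of 78 members did the CD5hi and CD5lo libraries not overlap (background 5.60% higher and 3.69% lower). Higher in CD5hi in all 4 same-numbered pairs were 3, Ndufb8, Cox5a and Atp5a1, and lower in all 4 were 0, where 16.0% and 14.7% of all genes were.

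In CD8 cells nearly all members lay above 0, few passed the test without pairing, and many passed it with pairing. Without the block 3 members were called higher in CD5hi and 0 lower, against 5.95% and 3.51% of all genes: Cox5a, Cox8a and Atp5g2. So the share called, 3 of 78, was near the background, while the direction was shared: 74 of 78 were above 0, with a median log2 change of 0.18 (-0.003 over all genes). Unadjusted p-values were below 0.05 for 14, all of them higher. The share of all genes at that level is not given for this fit, so the 14 have no background here. With blocks drawn within each lineage, 51 members were higher and 0 lower at that level, beside 2669 and 2570 of 13554 genes. DESeq2 called 4 higher (7.93% of all genes), the same 3 and Atp5a1, and limma voom the same 3 (6.25%).

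With the replicate number as a block, 30 of 78 were called higher and 0 lower, against 13.4% and 11.6% of all genes. They were 10 of 34 in complex I, 1 of 4 in II, 2 of 8 in III, 7 of 14 in IV, 9 of 17 in V, and Cycs; all 3 genes called without the block were among them. The median log2 change hardly moved (0.17), and the standard errors shrank. Blocking within each lineage called 29, of which 27 were shared with the 30 (13.7% of all genes). Dropping the 3 B-cell-rich libraries under the block called 35, of which 24 were shared (12.6%). The numbers paired the libraries in CD4 cells but not in CD8 cells by the check used here, a correlation of deviations over 0.1 in every pair. Over all tested genes, same-numbered CD8 CD5lo and CD5hi libraries deviated together in numbers 1 and 2 (r = 0.56 and 0.25) but not in 3 and 4 (0.03 and -0.04). In CD4 cells all 4 pairs did (0.25 to 0.53). CD8 numbers 3 and 4 each hold 1 B-cell-rich library, and so does CD4 number 3 (r = 0.53). Their part in the check was not tested. The replicate block also joins lineages. Among CD5lo cells, r between lineages was 0.48, 0.20, 0.70 and 0.53 for numbers 1 to 4. Among CD5hi cells it was 0.54, 0.24, 0.34 and 0.23. Between CD4 CD5lo and CD8 CD5hi it was 0.37, 0.09, 0.08 and -0.03. Between CD4 CD5hi and CD8 CD5lo it was 0.53, 0.27, 0.46 and 0.34. Over the 78 genes alone the CD8 values were 0.75, 0.70, 0.04 and 0.75.

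Single libraries moved these values. Without CD8 CD5hi replicate 1 the median log2 change fell to 0.06, 61 of 78 were above 0, and the fit without the block called 1 member against 4.90% of all genes, Atp5a1 (0.19 ± 0.05, edgeR adjusted p = 0.0346), while Cox5a (0.27, adjusted p = 0.0906), Cox8a (0.25, adjusted p = 0.108) and Atp5g2 (0.20, adjusted p = 0.11) lost their call. The block without that library called 15 of 78 (10.6% of all genes higher), all among the 30. This alternative was added after the data were seen. Its 15 genes were Ndufa12, Ndufa8, Uqcrq, Cox5a, Cox6b1, Cox6c, Cox8a, Ndufa4, Atp5a1, Atp5e, Atp5g1, Atp5g2, Atp5g3, Atp5j and Atp5o. With the block, leaving out the 4 libraries numbered 1 called 9 members beside 8.27% of all genes higher. Leaving out number 2 called 19 (9.42%), number 3 called 17 (10%) and number 4 called 29 (11.5%). Without the block, leaving out CD8 CD5lo replicate 2, 3 or 4 or CD8 CD5hi replicate 2 called 0.

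In CD8 cells the difference between same-numbered libraries was largest for number 1. The median over 78 genes was 0.32 for number 1, 0.19 for number 2, 0.08 for number 3 and 0.07 for number 4, with 71, 74, 62 and 61 genes higher in CD5hi. Those higher in all 4 pairs numbered 53 of 78, against 23.1% of all genes: 21 of 34 in complex I, 2 of 4 in II, 6 of 8 in III, 10 of 14 in IV, 13 of 17 in V, and Cycs. Lower in all 4 pairs were Sdha and Atp5sl, where 23.8% of all genes were. In CD4 cells the medians were 0.02, -0.14, 0.01 and 0.13, with 52, 12, 41 and 71 genes higher, so the pairs went opposite ways.

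**Figure D3:**
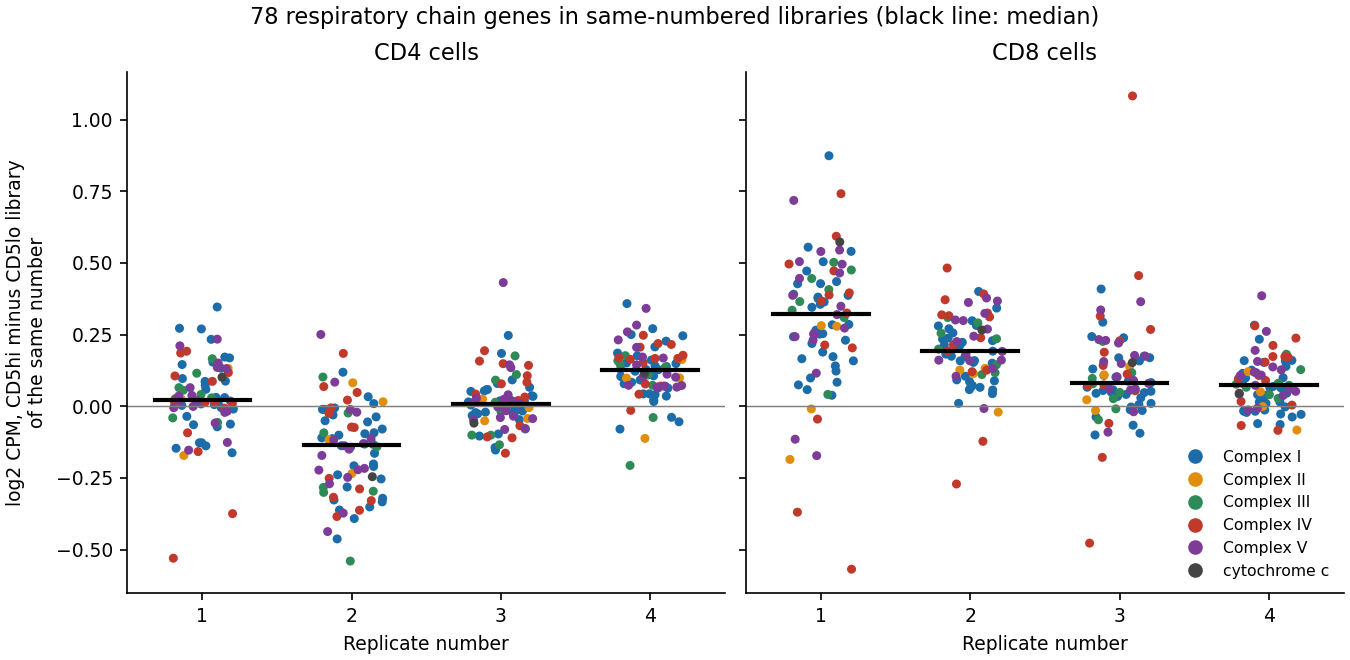
Difference in log2 CPM between the CD5hi and the CD5lo library of each replicate number, for CD4 (left) and CD8 cells (right); points are the 78 genes by complex and the black line their median. All 4 CD8 medians are above 0 (0.32 to 0.07); the CD4 medians run from -0.14 to 0.13.

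Complex IV, cytochrome c oxidase, held 2 of the 3 genes called without the block. Cox5a was at 75.1, 70.0, 67.6 and 71.7 CPM in CD8 CD5lo replicates 1 to 4 and at 96.8, 91.9, 84.0 and 80.8 in CD8 CD5hi. All CD5hi libraries were above all CD5lo libraries, and the log2 change was 0.31 ± 0.09 (edgeR adjusted p = 0.0348; 0.31 ± 0.05 and adjusted p = 0.000484 with the block). In CD4 cells Cox5a was at 73.8, 61.8, 59.0 and 59.4 CPM in CD5lo and 78.4, 64.9, 63.5 and 67.1 in CD5hi, which overlap.

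Cox8a was at 148, 135, 138 and 134 CPM in CD8 CD5lo and 195, 168, 166 and 157 in CD8 CD5hi, again without overlap. It rose by 0.31 ± 0.09 (edgeR adjusted p = 0.0389; 0.30 ± 0.05 and adjusted p = 0.000355 with the block). In CD4 cells it was at 127, 107, 108 and 97.9 in CD5lo and 128, 105, 120.2 and 110.1 in CD5hi. Cox8a thus showed a step at each move from CD4 to CD8 and, in CD8 cells, from CD5lo to CD5hi, as the plot of CPM by library shows.

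The upstream bases of these complex IV genes and of Cycs are printed because Cox5a and Cox8a were called and Cycs is the single cytochrome c member; capitals mark a match to the NRF1, ETS, YY1 or Sp1 letters, and each run is 250 bases of RefSeq's GRCm38.p6 ending just before the start site.
Cox5a (chr9:57520982-57521231, + strand): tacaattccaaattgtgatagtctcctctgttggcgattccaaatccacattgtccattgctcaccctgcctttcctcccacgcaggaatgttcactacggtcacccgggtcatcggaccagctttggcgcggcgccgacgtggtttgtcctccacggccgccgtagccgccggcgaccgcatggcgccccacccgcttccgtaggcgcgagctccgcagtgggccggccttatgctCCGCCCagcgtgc
Cox8a (chr19:7217617-7217866, - strand): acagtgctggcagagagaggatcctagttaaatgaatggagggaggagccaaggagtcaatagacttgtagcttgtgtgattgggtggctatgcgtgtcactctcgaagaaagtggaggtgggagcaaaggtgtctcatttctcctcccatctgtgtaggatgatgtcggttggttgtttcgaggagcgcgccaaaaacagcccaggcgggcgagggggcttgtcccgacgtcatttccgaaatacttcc
Cycs (chr6:50566570-50566819, - strand): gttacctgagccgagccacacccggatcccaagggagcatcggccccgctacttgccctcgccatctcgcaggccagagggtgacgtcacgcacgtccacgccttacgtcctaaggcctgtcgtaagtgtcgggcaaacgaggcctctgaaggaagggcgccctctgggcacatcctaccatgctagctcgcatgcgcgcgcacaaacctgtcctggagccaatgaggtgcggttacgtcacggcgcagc
Cox5a held an Sp1 box at -13 to -8 from the start, while the windows of Cox8a and Cycs held no exact match to any of the 4. The CCAAT box, also searched above, is not marked in capitals. It was present in the windows of Cox8a and Cycs and not in that of Cox5a. The search took exact letters only, so near matches were not counted. The Cycs window holds tcgcatgcgc, which differs from the NRF1 core in its first letter alone. The Cycs window shares bases with exons of 5430402O13Rik, a gene annotated on the opposite strand.

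Other complex IV genes were called with the block alone: Ndufa4, Cox6b1, Cox6c, Cox7b and Cox5b. Ndufa4, named for complex I but a subunit of complex IV, was the member with the largest change among them. It was at 97.6, 66.7, 63.5 and 64.4 CPM in CD8 CD5lo and 147, 93.1, 87.1 and 78.3 in CD8 CD5hi, so replicate 1 was high in both groups and the groups overlapped. Its log2 change was 0.47 ± 0.21 (edgeR adjusted p = 0.191) without the block and 0.46 ± 0.08 (adjusted p = 0.00125) with it. Cox6b1 was at 89.3, 71.9, 75.6 and 78.8 in CD8 CD5lo and 117, 89.7, 81.7 and 88.9 in CD5hi, higher in every pair (0.26 ± 0.12, edgeR adjusted p = 0.203; adjusted p = 0.00339 with the block). Cox4i1, the isoform of subunit 4 in most tissues, was level: 213, 196, 203 and 205 CPM in CD8 CD5lo and 206, 213, 195 and 207 in CD5hi (0.01 ± 0.06, 95% interval -0.13 to 0.15, edgeR adjusted p = 0.963). Cox7a2l was at 310.2, 313, 299 and 284 in CD8 CD5lo and 359.6, 288, 264 and 268 in CD5hi (-0.03 ± 0.09, edgeR adjusted p = 0.879); outside replicate 1 each CD5hi library was below its same-numbered CD5lo library. The muscle form Cox7a1 had the lowest value of all members, -0.25 ± 0.24 (adjusted p = 0.615), on 32 to 76 counts.

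Complex V held the third gene called without the block. Atp5g1, Atp5g2 and Atp5g3 encode one and the same mature c subunit of the rotor ring with different import sequences. Atp5g2 was at 75.5, 74.8, 78.6 and 76.1 CPM in CD8 CD5lo and 106, 92.0, 87.6 and 82.0 in CD8 CD5hi, without overlap (0.27 ± 0.08, edgeR adjusted p = 0.0417; 0.27 ± 0.06 and adjusted p = 0.00712 with the block). In CD4 cells it was at 83.8, 76.9, 85.6 and 74.6 in CD5lo and 82.5, 71.2, 82.8 and 80.0 in CD5hi.

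The other c subunit genes had changes of like size in CD8 cells. Atp5g1 was at 72.6, 61.9, 63.1 and 63.7 CPM in CD5lo and 94.998, 76.3, 71.4 and 71.0 in CD5hi (0.26 ± 0.10, edgeR adjusted p = 0.131; adjusted p = 0.00852 with the block). Atp5g3 was at 155, 134, 124 and 117 in CD5lo and 185, 172, 159 and 134 in CD5hi (0.30 ± 0.11, edgeR adjusted p = 0.126; adjusted p = 0.00107 with the block). Per kilobase, Atp5g3 was the highest of these genes (mean RPKM 74.5 ± 10.1 in CD8 CD5hi) and Atp5g1 the lowest (16.0 ± 2.3), with Atp5g2 at 54.9 ± 6.22; the means over 16 libraries had the same order over the longest transcript.

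The catalytic head genes had smaller differences and a smaller spread. Atp5a1 was at 608, 628, 614 and 608 CPM in CD8 CD5lo and 659, 743, 693 and 659.9 in CD8 CD5hi, with no overlap; its change of 0.17 ± 0.05 just missed the threshold without the block (edgeR adjusted p = 0.0501) and passed with it (adjusted p = 0.0125). CD8 CD5hi replicate 1, the highest of its group for most members, was the lowest for Atp5a1, as it was for Atp5d, Atp5sl, Cox7a1 and Sdha. Atp5b was at 805, 775, 782 and 784 in CD8 CD5lo and 945, 866, 833 and 807 in CD8 CD5hi (0.13 ± 0.06, edgeR adjusted p = 0.226; adjusted p = 0.0413 with the block). Atp5e, the epsilon subunit of the central stalk, was at 123, 104, 110.0 and 101 in CD8 CD5lo and 170.4, 134, 128 and 121 in CD5hi (0.34 ± 0.13, edgeR adjusted p = 0.126; adjusted p = 0.00308 with the block). Complex V genes called with the block also included Atp5j, Atp5o and Atp5s. Atp5d, the delta subunit of the central stalk (0.04 ± 0.10, edgeR adjusted p = 0.859), and Atp5sl, which the name rule takes in although it is an assembly factor for complex I (-0.07 ± 0.06, edgeR adjusted p = 0.5), did not pass the test. Atp5sl was at 83.8, 77.9, 82.2 and 79.0 CPM in CD8 CD5lo and 74.4, 77.5, 77.2 and 78.3 in CD5hi, lower in each pair.

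Complex I had 0 of 34 genes called without the block and 10 with it, although all 34 lay above 0 in CD8 cells (median 0.16). That shared direction depended on CD8 CD5hi replicate 1. Without that library and without the block, not all 34 stayed above 0 (Ndufa6 at -0.10, Ndufa12 at 0.28). The 10 were Ndufa8, Ndufa11, Ndufa12, Ndufb2, Ndufb5, Ndufb8, Ndufc2, Ndufs6, Ndufs8 and Ndufv2. Ndufa12, an accessory subunit added late in assembly, was at 23.5, 19.2, 19.0 and 20.05 CPM in CD8 CD5lo and 30.9, 25.3, 25.2 and 23.6 in CD5hi. Each CD5hi library was above each CD5lo library, by a margin that is narrow for replicate 4 (0.36 ± 0.14, edgeR adjusted p = 0.121; 0.36 ± 0.07 and adjusted p = 0.00142 with the block). Ndufc2 had the highest change of all 78 (0.52 ± 0.23, edgeR adjusted p = 0.183; adjusted p = 0.0218 with the block). It was at 53.3 CPM in CD8 CD5hi replicate 1 and 24.99, 26.5 and 23.9 in the others, against 29.1, 19.7, 21.6 and 19.6 in CD5lo. Replicate 1 was far above the other CD5hi libraries, and the CD5hi library was the higher one in each same-numbered pair. Without that library the change under the block was 0.28 ± 0.10 (adjusted p = 0.0713). Ndufa8 (0.20 ± 0.11), Ndufb8 (0.21 ± 0.10) and Ndufs8 (0.20 ± 0.10) had changes of like size, with edgeR adjusted p = 0.298, 0.216 and 0.252 without the block. The catalytic flavoprotein gene Ndufv1 was level at 87.1 to 91.2 CPM in CD8 CD5lo and 88.9 to 93.7 in CD5hi (0.03 ± 0.06, edgeR adjusted p = 0.843).

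Complex II, which also acts as succinate dehydrogenase of the tricarboxylic acid cycle, had 0 of 4 called without the block and Sdhb with it. Sdha, the flavoprotein that oxidises succinate, was at 206, 224, 210.1 and 238 CPM in CD8 CD5lo and 181, 221, 208 and 224 in CD5hi (-0.07 ± 0.08, edgeR adjusted p = 0.656). Its lowest values in both CD5hi groups were those of replicate 1 (186 in CD4), opposite to most members. Sdhb, the iron-sulfur subunit, was at 104, 90.2, 84.7 and 86.0 in CD8 CD5lo and 126, 97.6, 91.4 and 93.5 in CD5hi (0.16 ± 0.11, edgeR adjusted p = 0.44; adjusted p = 0.0326 with the block). The membrane anchors differed in value: Sdhc 0.03 ± 0.09 and Sdhd 0.16 ± 0.12 (edgeR adjusted p = 0.871 and 0.492).

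Complex III had 0 of 8 called without the block and Uqcrq and Uqcr10 with it, with all 8 above 0 (median 0.19). Uqcrq was at 60.2, 50.4, 51.5 and 52.3 CPM in CD8 CD5lo and 79.8, 62.5, 54.4 and 59.4 in CD5hi (0.26 ± 0.11, edgeR adjusted p = 0.171; adjusted p = 0.00952 with the block). Uqcrh, the acidic hinge protein that contacts cytochrome c and the most abundant gene of the complex, was at 204, 170.4, 176 and 172 in CD8 CD5lo and 277, 188, 182 and 181 in CD5hi (0.20 ± 0.13, edgeR adjusted p = 0.408). Its CD5hi values outside replicate 1 lay within the CD5lo range. Uqcr10 was at 64.6, 52.6, 54.8 and 52.0 in CD8 CD5lo and 81.5, 61.9, 58.6 and 56.9 in CD5hi, higher in every pair (0.21 ± 0.13, edgeR adjusted p = 0.378; adjusted p = 0.0363 with the block). The core protein gene Uqcrc2 was at 181, 157, 155 and 148 in CD8 CD5lo and 224, 181, 168 and 155 in CD5hi (0.18 ± 0.12, edgeR adjusted p = 0.418). The other core protein gene, Uqcrc1, was nearly level (0.06 ± 0.06, edgeR adjusted p = 0.623). Uqcrfs1, the Rieske iron-sulfur protein, was called when the 3 B-cell-rich libraries were left out (with Cox5a and Atp5g2, 7.01% of all genes higher), and not with all libraries (0.15 ± 0.08, edgeR adjusted p = 0.304).

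Cycs was at 39.8, 32.9, 36.1 and 35.0 CPM in CD8 CD5lo and 59.3, 39.6, 40.1 and 36.1 in CD8 CD5hi. Replicate 1 was far above the others, and replicates 2 and 4 lay within the CD5lo range (0.28 ± 0.14, edgeR adjusted p = 0.245; 0.26 ± 0.08 and adjusted p = 0.0253 with the block). In CD4 cells it was at 42.2, 38.7, 37.5 and 32.99 in CD5lo and 45.3, 32.6, 36.03 and 35.7 in CD5hi (-0.02 ± 0.14, edgeR adjusted p = 0.997).

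**Figure D4:**
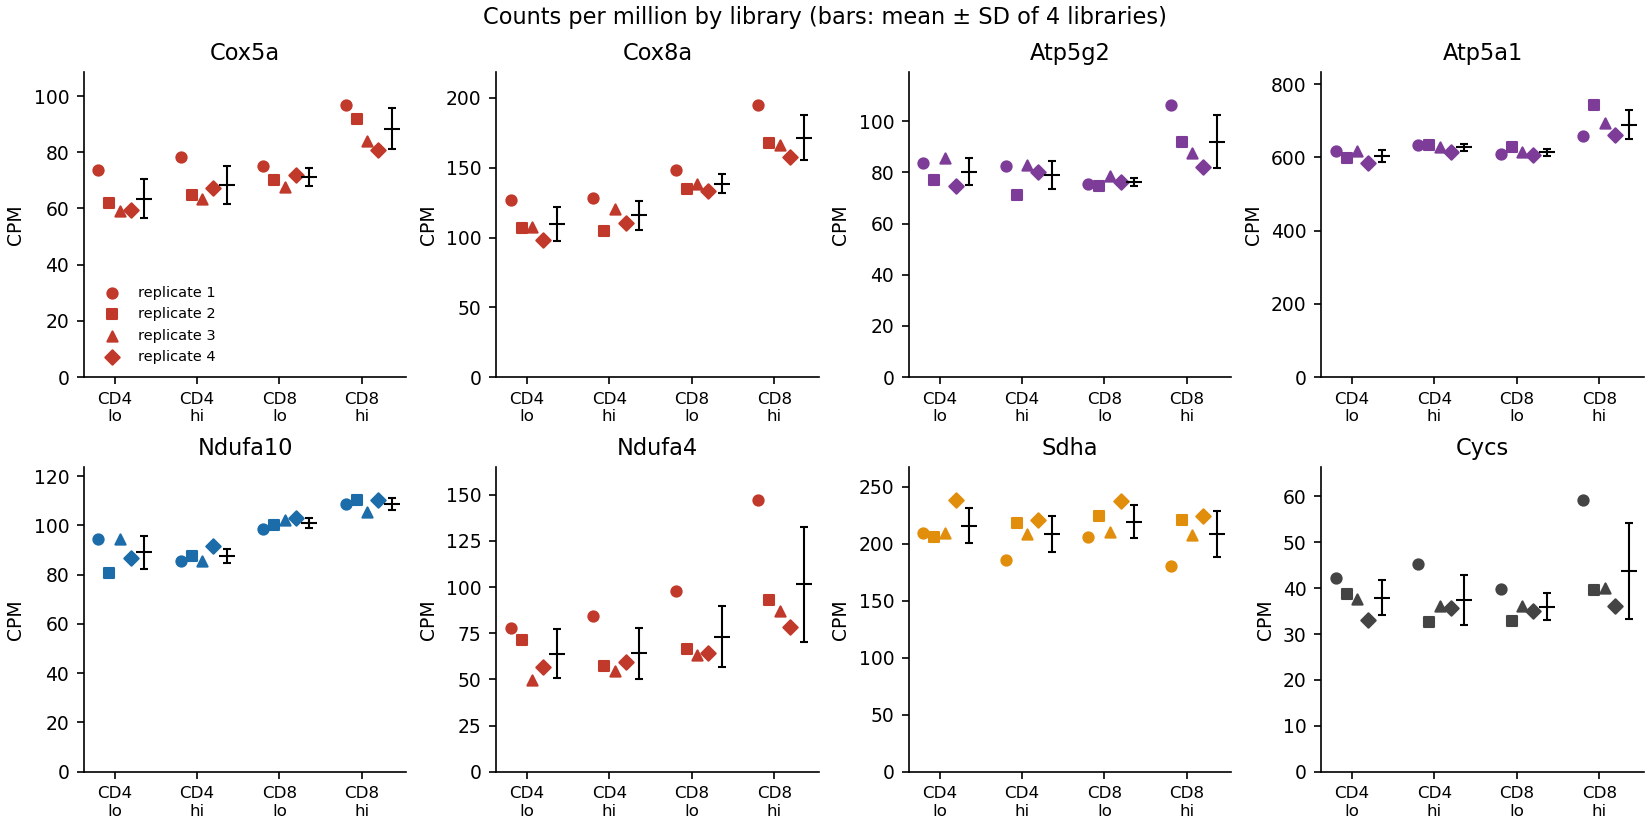
CPM of 8 members in each of the 16 libraries by group, with symbols for the replicate numbers and bars for the mean ± SD of 4 libraries; axes start at 0. Cox5a, Cox8a, Atp5g2, Atp5a1 and Ndufa10 are higher in all CD8 CD5hi than in all CD8 CD5lo libraries, while Ndufa4, Sdha and Cycs overlap.

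Counting groups that did not overlap needs neither a model nor a pairing. In CD8 cells 7 of 78 members had all CD5hi libraries above all CD5lo libraries, Ndufa10, Ndufa12, Cox5a, Cox8a, Atp5a1, Atp5b and Atp5g2, where 8.31% of all tested genes did. In 0 members were all CD5hi libraries below (6.52% of all genes). Thus the share of members that separated was close to that of genes in general.

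A difference between CD8 and CD4 cells in the CD5 effect was not shown for any member in the fit over all 16 libraries. The interaction term called 0 of 78 higher and 0 lower in CD8 (0.177% and 0.133% of all genes), with 1 unadjusted p-value below 0.05. DESeq2 and limma voom also called 0. The smallest p was that of Atp5g2 (0.29 ± 0.11, edgeR adjusted p = 0.471), and the median was 0.18. With the block the counts stayed at 0 and 0 (1.51% and 1.28% of all genes), with 25 unadjusted p-values below 0.05. The share of all genes at that unadjusted level is not given for these fits. With blocks within lineage, 24 members were higher and 0 lower at that level, beside 1260 and 1173 of 13554 genes. With blocks within lineage Ndufa4 alone was called (1.86% of all genes higher), and so it was with the block once the 3 B-cell-rich libraries were dropped (2.25%).

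**Figure D5:**
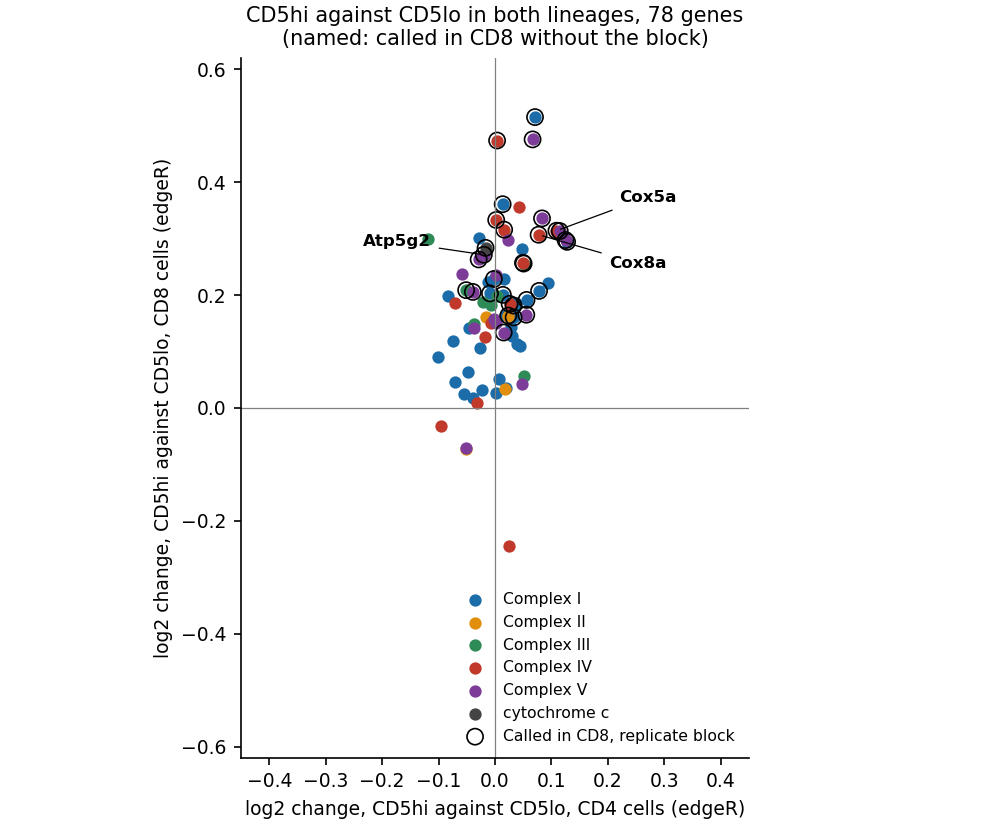
Log2 change from CD5lo to CD5hi for each of the 78 genes in CD4 cells (horizontal) and CD8 cells (vertical), coloured by complex; rings mark the 30 genes called in CD8 cells with the replicate block, names the 3 called without it. Points spread around 0 in CD4 cells (median 0.004) and lie mostly above 0 in CD8 cells (median 0.18).

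The lineage comparisons share libraries with the CD5 comparisons, so their values stand side by side and are no separate support. Among CD5lo cells, 2 members were called higher in CD8 than in CD4 cells and 0 lower, against 10% and 9.44% of all genes. Cox8a was higher by 0.34 ± 0.09 (edgeR adjusted p = 0.0119), with all CD8 CD5lo libraries (134 to 148 CPM) above all CD4 CD5lo libraries (97.9 to 127). Ndufa10, an accessory subunit of complex I, was higher by 0.18 ± 0.06 (edgeR adjusted p = 0.0346), at 98.4, 100.1, 102 and 103 CPM against 94.5, 80.7, 94.4 and 86.7. The median over the 78 genes was 0.004. With the block 5 were called higher, adding Ndufa9, Cox5a and Atp5b, and 4 lower, Ndufa2, Ndufa3, Ndufa7 and Atp5s (15.7% and 16.3% of all genes). Without the 3 B-cell-rich libraries, 2 of which are CD5lo libraries numbered 3, 0 members were called (8.32% of all genes higher).

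Among CD5hi cells, 8 members were called higher in CD8 and 0 lower, against 15.6% and 14.8% of all genes, with a median of 0.17. Cox8a was higher by 0.57 ± 0.09 (edgeR adjusted p = 0.000135) and Ndufa10 by 0.31 ± 0.06 (adjusted p = 0.00053), at 109, 110.3, 105 and 110.4 CPM against 85.4, 87.6, 85.4 and 91.6. Cox5a (0.37), Atp5b (0.24), Ndufa4 (0.66), Ndufa9 (0.30), Sdhd (0.36) and Atp5g2 (0.22) made up the rest. With the block 34 were called higher and 0 lower (23.4% and 23.3% of all genes), and all 8 were among them. Without CD8 CD5hi replicate 1, the fit without the block called 5 (15.2% of all genes): Ndufa10, Cox5a, Cox8a and Atp5b of the 8, and Atp5a1.

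The genes that build and serve the respiratory chain were read from lists of known genes in the same fits. In CD8 cells without the block, complex IV assembly factors had 1 of 23 tested genes higher, Cox10, which makes the heme A precursor of this complex (0.35 ± 0.10, edgeR adjusted p = 0.0294). Assembly factors of complexes I (14 tested), II (4), III (6) and V (4) had 0 called either way. With the block, beside 13.4% of all genes higher, Nubpl (0.38 ± 0.10, edgeR adjusted p = 0.0155) was called for complex I, Sdhaf3 (0.39 ± 0.13, adjusted p = 0.0466) for II, Uqcc2 (0.32 ± 0.08, adjusted p = 0.0117) and Bcs1l (0.19 ± 0.06, adjusted p = 0.0362) for III, and Atpif1, the inhibitor of ATP hydrolysis by the synthase (0.42 ± 0.08, adjusted p = 0.00167), for V. With blocks drawn within each lineage the counts for II and III were 0 and 1. Complex IV had 4 of 23 higher with the block, Cox10, Coa5, Higd1a and Cmc1, and 1 lower, Cmc2 (-0.31 ± 0.08, edgeR adjusted p = 0.0101). Among 6 carriers and pores for adenine nucleotides and phosphate, Slc25a5, the adenine nucleotide translocase of dividing cells, was higher (0.37 ± 0.11, edgeR adjusted p = 0.0437). With the block 5 of the 6 were higher, adding the phosphate carrier Slc25a3 and the outer membrane pores Vdac1, Vdac2 and Vdac3. Of 18 tricarboxylic acid cycle genes, Idh3a, a subunit of the NAD-linked isocitrate dehydrogenase, was higher (0.32 ± 0.08, edgeR adjusted p = 0.0147) and Idh2, the NADP-linked enzyme, lower (-0.40 ± 0.07, adjusted p = 0.00208). With the block Idh3a, Idh3g and Fh1, the fumarate hydratase, were higher and Idh2 lower.

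The 18 tested regulators of mitochondrial genes had 0 higher and 2 lower in CD8 CD5hi: Polg, the mitochondrial DNA polymerase (-0.36 ± 0.07, edgeR adjusted p = 0.0037), and Perm1 (-0.44 ± 0.10, adjusted p = 0.01). Their list median was -0.10, opposite in sign to that of the members. With the block 6 were lower, adding Polg2, Gabpb2, Nrf1 and Polrmt, and 0 higher. Nrf1 itself, whose core letters were searched above, was at -0.18 ± 0.07 (edgeR adjusted p = 0.145) without the block and fell by 0.18 ± 0.05 with it (adjusted p = 0.0113). Of 5 chain or associated genes outside the name rule, Ndufab1, Cyc1, Usmg5, 2010107E04Rik and Hccs, 0 were called without the block (median 0.26) and 2 higher with it, Ndufab1 and 2010107E04Rik; blocks within lineage called 0 of the 5. In CD4 cells without the block, 2 genes of these lists were called: Sdhaf1, an assembly factor for complex II (0.36 ± 0.07, edgeR adjusted p = 0.00781), and Idh2 (-0.32 ± 0.07, adjusted p = 0.0156). The block added Cmc2 as lower (-0.29 ± 0.08, edgeR adjusted p = 0.0297).

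Cell cycle genes were higher in CD8 CD5hi than in CD8 CD5lo. Of 24, 22 were higher in CD8 CD5hi (edgeR without the block, median log2 change 1.66) and 0 in CD4 CD5hi (median 0.27, 22 of 24 above 0, 4 at unadjusted p-values below 0.05). With the block 24 of 24 were higher in CD8 CD5hi and 3 in CD4 CD5hi, and with blocks within lineage 24 and 6. Their summed level was 1446, 1489, 1231 and 835 CPM in CD8 CD5hi replicates 1 to 4 and 648 to 742 in CD8 CD5lo. B cell markers had 0 of 13 called in either lineage, with medians of 0.50 in CD8 and -2.63 in CD4 cells. The CD8 median of these markers depended on the fit: it was 0.49 with the block, and with blocks within lineage it was -0.95, where 2 of 13 lay above 0. Summed myeloid markers were at 2.91 to 28.8 CPM in CD8 CD5hi and 3.75 to 24.4 in CD8 CD5lo, with 0 of 10 tested called. Natural killer cell markers, some of which CD8 T cells also express, were at 285 to 340 CPM in CD8 CD5lo and 346 to 408 in CD8 CD5hi, with 1 of 3 tested called higher. Of 11 T cell markers 0 were higher and 2 lower, and the hemoglobin genes, Pf4 and Ppbp were at 0 in all groups.

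Among ribosomal protein genes in CD8 cells, 74 of 82 cytosolic (median log2 change 0.13) and 70 of 77 mitochondrial ones (median 0.16) lay above 0. Without the block 2 cytosolic and 0 mitochondrial ones were called higher, beside 5.95% of all genes. With it 26 and 22 were higher and 1 of each lower, beside 13.4% of all genes higher. Their difference from the members was not tested. The part of cell cycle genes, GC content and the ribosomal protein genes in the members' values was not tested.

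The counts of some members may include reads of a neighbour, since no source used here gives the strand setting of the counting. By GENCODE annotation, Ndufb6 shares 39% of its exonic bases with Toporsos, Ndufa13 29.98% with Tssk6 and Uqcrc2 19.8% with Pdzd9, each on the opposite strand. For Ndufb11, Atp5j, Ndufb5 and Ndufa2 the share was between 11.5 and 12.9%, and Cox4i1 shares 9.94% with Emc8. Atp5o shares 12.3% with another annotated gene of the same name, on the same strand. Neither Cox5a nor Cox8a shares exonic bases with another gene of the count table, and other genes were not compared. Atp5g2 contains the microRNA gene Mir688 (4.48%).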

How the data were processed

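RNA was sequenced from 16 sorted libraries, 4 in each of 4 groups. The authors deposited a table of raw gene counts, whole numbers with no normalisation per the values. Per the submitters' processing notes, processing used build mm10, featureCounts 1.4.6-p3, DESeq2 and STAR 2.5.2a, in roles not stated. Per the labels' protocols, libraries were made with TruSeq RNA v2 or TruSeq stranded mRNA kits; no source used here says which kit served which library or how strand was set. Each sample had 2 technical replicates by the design text, which does not say how they were combined.

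The main test was edgeR 4.0.16 (R 4.3.3), the quasi-likelihood F test with 1 term per group over all 16 libraries, TMM scaling and filterByExpr (minimum count 10, minimum total 15), with 12 residual degrees of freedom (9 with the replicate number as a block). Tests were two-sided, and p-values were adjusted by Benjamini-Hochberg over all 13554 genes in each of 5 comparisons, with a threshold of 0.05. The scripts were tested on simulated data. CPM are counts scaled by TMM library sizes, and RPKM divide these by merged exons (GENCODE vM21, GRCm38), matched by symbol for 24020 entries and all 78 members. DESeq2 1.42.0 and limma 3.58.1 (voom), other scalings, no filter, blocks and left-out libraries were alternatives. Because same-numbered deviations correlated above 0.1 in every CD4 pair but not in every CD8 pair, both fits are given. The members and lists were chosen with earlier results of these data known. Named with values were, per complex and CD5 comparison, up to 5 members each way with the smallest p, up to 6 each way called in a lineage comparison, the highest and lowest by RPKM, and always Cycs, the Sdh and Atp5g genes, Cox4i1, Cox7a2l and Ndufa4. Not all of these are printed, and other names were chosen after their values were seen. Promoters came from RefSeq tables (GRCm38.p6).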

Additional observations from a re-analysis of the deposited data

Results flagged for a closer look

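Of 88 groups of 4 libraries examined, 8 held a library far from the other 3 of its group. For a single group chance gives about 1 in 20. The groups share libraries and genes and are not independent, so the 8 cannot be read against that rate. Of single genes, Atp5g1 was at 72.6 CPM in CD8 CD5lo replicate 1, and Ndufa4 at 97.6 in the same library and at 84.5 in CD4 CD5hi replicate 1. Sdha was at 239 CPM in CD4 CD5lo replicate 4. The median deviation of CD8 CD5hi replicate 1 from the 16-library means was 0.43 over complex I, 0.53 over complex III and 0.46 over all 78 genes, and that of CD8 CD5lo replicate 1 over all 78 genes was 0.13. All but the Sdha value belong to libraries numbered 1.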

How the results depend on the processing

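The replicate block moved the counts most. In CD8 cells, CD5hi against CD5lo, 3 members were called higher without it, 30 with the replicate block, 29 with blocks within lineage, 35 with the block once the 3 B-cell-rich libraries were dropped, and 15 with the block and CD8 CD5hi library 1 left out, an alternative chosen after seeing the data. Leaving out 1 library gave 0 to 5 without the block (median change 0.0569 to 0.266), and leaving out 1 number with it gave 9 to 29. Same-numbered pairing held by the correlation check in CD4 cells, where 8 of 8 libraries correlated best with their own number, and not in CD8 cells, where 4 of 8 did. The block changed 0 calls among members in CD4 cells, where leaving out 1 library moved the median from -0.0730 to 0.0774. For the difference between lineages in the CD5 effect, 1 member was called with blocks within lineage and 1 with the block and without those 3 libraries, against 0 otherwise; the median was 0.0573 to 0.269 over left-out libraries. Among CD5lo cells, CD8 against CD4, 2 became 1 with no filter, 1 with the 2 groups alone, 0 without the 3 libraries, 5 with the block and 7 with the block and library 1 left out, and 1 to 2 over left-out libraries (medians -0.0676 to 0.0643). Lower calls there were 0 in the main analysis, 4 with the block, 1 with the block and without the 3 libraries, and 4 with the block and library 1 left out. Among CD5hi cells 8 became 13 in DESeq2, 5 with the 2 groups alone, 34 with the block, 39 with the block and without the 3 libraries, 27 with the block and library 1 left out, and 4 to 15 over left-out libraries (medians 0.0569 to 0.256). In both CD8 against CD4 comparisons the block also raised the share of all genes called, higher and lower, as given above. The rise in members called with it can therefore not be read as particular to them. For most other settings of these comparisons that share is not given, so their counts have no background here. The longest transcript moved the median RPKM to 58.9. The cause of these shifts was not tested. Of 28 settings, Cox5a kept its CD8 call in 23, Cox8a in 21 and Atp5g2 in 20, with 0 reversed. These settings are not equal checks. Of them, 16 leave out 1 library, and some of those drop a CD4 library, which this comparison does not contrast. Among the 16, Cox5a lost its call in 5, Cox8a in 6 and Atp5g2 in 6.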
